A study of Mus musculus with 51 samples.

Results

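The comparison of 2 antibodies against methylated lysine 4 of histone H3 is described here, from 5 pairs of ChIP-Seq peak lists of mouse meiotic nuclei. In experiment 2, each of 5 sorted stages of meiotic prophase I had one list from the Abcam antibody, labelled as recognising H3K4me2/3, and one from the EpiCypher antibody, labelled as recognising H3K4me3. The members were all lists of experiment 2 with either antibody, chosen by their labels, which gave 10 of the 51 samples of the series and 166007 of the 238528 deposited peaks. Nuclei came from testes of adult wild-type male C57Bl/6J mice and were sorted by flow cytometry. Leptonema was sorted with STRA8 and SCP3, and zygonema, early pachynema, late pachynema and diplonema with SCP3, H1t and SCP1. None of the groups carried a treatment or an engineered allele. Each antibody had 1 library per stage, and the study lists another purity and another amount of chromatin for the early pachynema Abcam library than for its EpiCypher partner, while the other pairs share both, so that antibody and preparation cannot be told apart at that stage. The 5 EpiCypher lists and 5 H3K9ac lists of experiment 1 served as further readouts.

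Trimethylation of H3 lysine 4 marks the nucleosomes around active and CpG-rich promoters, and dimethylation is typically found on the flanks of these promoters and at enhancers. In spermatocytes the same methylation is also laid down by PRDM9 at the sites where recombination starts.

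Sequences from 5 regions are given as single examples, which do not stand for their classes of peaks. First come a promoter called by both antibodies, one called by Abcam alone and one called by EpiCypher alone. An Abcam-only and an EpiCypher-only region outside transcription start sites (TSSs) follow. Each is the stretch of 200 bases free of annotated exons that lies nearest the centre of the peak, on the plus strand of mm10, with CpG dinucleotides in capitals.
Zbtb32, chr7:30598388-30598587: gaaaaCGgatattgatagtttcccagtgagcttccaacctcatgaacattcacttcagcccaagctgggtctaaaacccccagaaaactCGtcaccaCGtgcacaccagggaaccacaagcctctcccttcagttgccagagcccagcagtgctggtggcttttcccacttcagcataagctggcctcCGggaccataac
Bdh1, chr16:31429782-31429981: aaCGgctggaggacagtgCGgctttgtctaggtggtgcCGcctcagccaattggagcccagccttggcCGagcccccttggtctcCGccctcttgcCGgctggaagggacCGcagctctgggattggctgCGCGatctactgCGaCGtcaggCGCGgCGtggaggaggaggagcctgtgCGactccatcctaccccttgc
Kpna1, chr16:35983664-35983863: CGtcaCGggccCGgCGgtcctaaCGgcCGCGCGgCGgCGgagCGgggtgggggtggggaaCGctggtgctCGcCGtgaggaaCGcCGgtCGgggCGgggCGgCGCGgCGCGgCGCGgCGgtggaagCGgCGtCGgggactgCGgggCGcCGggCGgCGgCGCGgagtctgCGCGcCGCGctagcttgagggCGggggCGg
Near Dhx37, chr5:125404556-125404755: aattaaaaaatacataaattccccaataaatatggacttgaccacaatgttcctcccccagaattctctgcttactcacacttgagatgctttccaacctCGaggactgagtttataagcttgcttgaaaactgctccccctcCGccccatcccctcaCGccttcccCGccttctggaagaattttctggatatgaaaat
Near Aatf, chr11:84413805-84414004: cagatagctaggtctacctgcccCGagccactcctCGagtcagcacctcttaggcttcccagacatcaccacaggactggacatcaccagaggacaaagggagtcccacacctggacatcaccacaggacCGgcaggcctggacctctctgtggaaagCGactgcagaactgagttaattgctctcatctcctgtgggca
The Kpna1 window held 42 CpGs and the Bdh1 window 15. The Zbtb32, Dhx37 and Aatf windows held 4 each. These counts do not follow the class medians. The promoter windows come from diplonema peaks. Among TSS peaks of that stage, the median ratio of observed to expected CpGs in 500 bp was 0.785 for shared Abcam peaks. It was 0.629 for Abcam-only and 0.771 for EpiCypher-only peaks. The Bdh1 window comes from an alternative promoter inside the gene, and so does that of Kpna1.

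The Abcam list was the longer of the pair at every stage and held almost all of the EpiCypher peaks. Abcam gave 30943, 29114, 17561, 19711 and 18191 peaks from leptonema to diplonema. EpiCypher gave 13095, 11314, 4883, 9124 and 12071 peaks at the same stages. The 2 antibodies did not overlap in list length, and the difference averaged 13007 ± 4995 peaks (SD, n = 5 stage pairs) and was positive at 5 of 5 stages. In a two-sided exact sign-flip permutation test over the 5 pairs this gave p = 0.0625, which is the smallest p that 5 pairs allow. No paired test here could therefore pass 0.05, and 0.0817 is the smallest value after adjustment over the 17 tests by Benjamini-Hochberg. The 5 stages are different cell populations, so the tests ask whether a difference held its direction from stage to stage. They say nothing of the spread between libraries of 1 antibody and stage.

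The lists hold no score or read count, so the depth behind a peak is unknown and an uncalled site may carry the mark below the threshold. A longer list can come from a deeper or cleaner library as well as from the antibody, and these cannot be told apart from the lists. At every stage the study lists a higher signal portion of tags (SPoT, all sites) for the Abcam library than for its EpiCypher partner. The pairs thus differ in enrichment too. A mark in few nuclei and a weak mark in all nuclei cannot be told apart either. For this reason the comparisons were also made at equal list size, with the widest peaks of the longer list.

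Overlap was strongly one-sided. A peak counted as shared when it overlapped a peak of the other antibody at the same stage by at least 1 bp. Of the EpiCypher peaks, 94.1%, 93.2%, 99.0%, 96.3% and 94.5% were shared from leptonema to diplonema. Of the Abcam peaks, 39.1%, 35.9%, 27.3%, 43.9% and 61.7% were shared. The exact (Clopper-Pearson) 95% intervals of these shares, and of the shares at TSSs of whole lists, reach at most 0.898 points from their middle, and they cover counting error over peaks only. The lowest EpiCypher share thus exceeded the highest Abcam share, with a mean difference of 53.9 ± 13.9 points (SD, n = 5, exact sign-flip p = 0.0625). Shared peaks mostly meet 1 to 1, so the shorter EpiCypher list limits the Abcam share. This difference is therefore no result separate from that in list length.

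Lists of equal length whose peaks mostly meet one to one have near-equal shares by construction, so nothing is read from the difference at equal list size. The EpiCypher shares then fell to 75.2%, 70.6%, 67.2%, 78.9% and 83.9% in the order of the stages, and the Abcam shares rose to 73.3%, 69.6%, 66.4%, 77.3% and 82.4%. The remaining difference was 1.35 ± 0.452 points (SD, n = 5, exact sign-flip p = 0.0625).

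**Figure D1:**
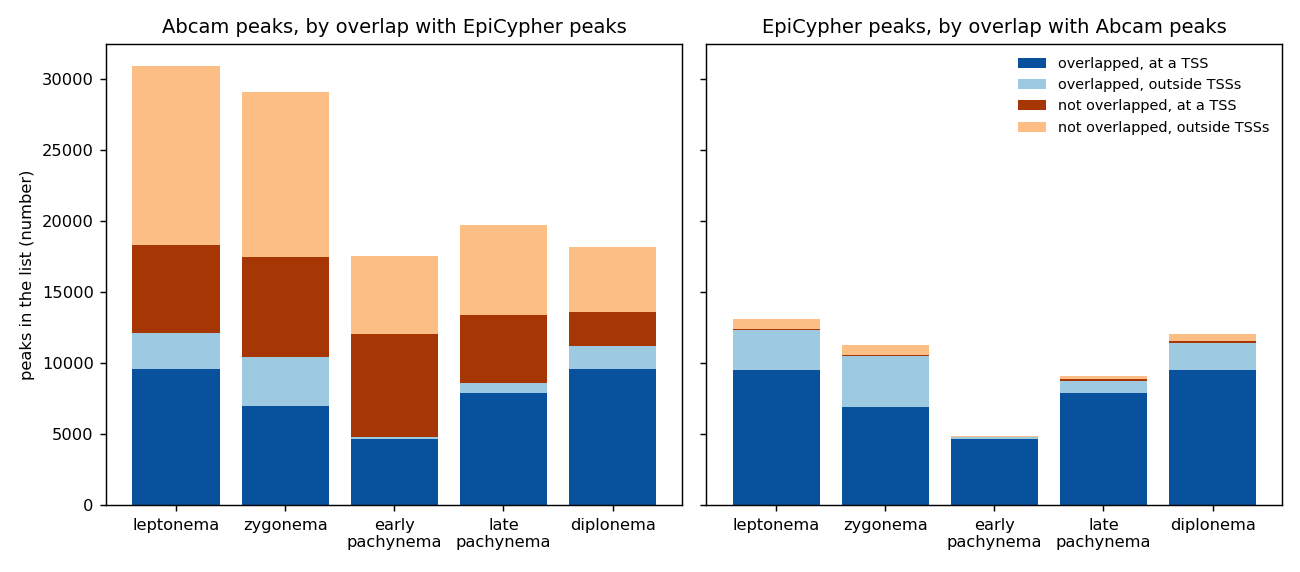
Number of peaks per stage in the Abcam lists (left) and the EpiCypher lists (right), stacked by whether a peak overlaps one of the other antibody and whether it lies at a TSS. EpiCypher bars are mostly the overlapped classes, and most Abcam peaks are not overlapped at every stage except diplonema, where 61.7% are overlapped.

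Most shared peaks lay at promoters and most unshared peaks did not, except the Abcam-only peaks of early pachynema. A TSS was taken as 500 bp on either side of a GENCODE M21 transcript 5′ end. Of the shared Abcam peaks, 79.5%, 67.0%, 98.0%, 91.6% and 85.4% were at a TSS from leptonema to diplonema. Of the Abcam-only peaks, 33.0%, 37.7%, 56.9%, 42.7% and 34.1% were. The difference was 43.4 ± 8.75 points (SD, n = 5, exact sign-flip p = 0.0625), and the ranges did not overlap. With each list cut at its median width it was 15.5 points. In absolute numbers, Abcam-only peaks still added 6219, 7040, 7266, 4728 and 2374 TSS peaks, and 12614, 11631, 5499, 6338 and 4587 peaks outside TSSs.

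EpiCypher-only peaks were few and were the class with the lowest TSS share. They numbered 773, 769, 47, 335 and 659 from leptonema to diplonema. Their TSS shares were 14.7%, 8.84%, 14.9%, 25.7% and 24.0%, against 77.4%, 65.9%, 97.4%, 89.8% and 83.6% of the shared EpiCypher peaks. The difference was 65.2 ± 10.0 points (SD, n = 5, exact sign-flip p = 0.0625), and 34.6 points with each list cut at its median width. The early pachynema share rests on 47 peaks, with an exact 95% interval from 6.20% to 28.3%.

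The whole EpiCypher lists of experiment 2 had the higher TSS share at every stage, and the direction depended on how the lists were cut. The share of peaks at a TSS was 51.2%, 48.2%, 68.1%, 64.2% and 65.7% in the Abcam lists and 73.7%, 62.1%, 96.6%, 87.5% and 80.4% in the EpiCypher lists, a difference of -20.6 ± 6.20 points (SD, n = 5, exact sign-flip p = 0.0625). With each list cut at its median width the difference was -5.76 points and 1 stage was positive, and against EpiCypher experiment 1 the Abcam share was the higher in zygonema, at 48.2% against 46.8%. Cut to the EpiCypher list size, the Abcam lists had 79.8%, 73.3%, 94.8%, 86.4% and 78.8% at a TSS. These values were higher than those of EpiCypher in leptonema and zygonema and lower at the 3 later stages, by 2.58 ± 5.87 points on average (SD, n = 5, exact sign-flip p = 0.5). With lists of equal covered length in place of equal size, the Abcam share was higher at 5 of 5 stages, by 11.5 points on average.

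Outside TSSs the largest part of both classes was intergenic, except for shared peaks in zygonema. Intergenic sequence held 43.5%, 40.9%, 63.2%, 50.8% and 50.4% of the shared Abcam peaks outside TSSs and 49.9%, 46.2%, 52.6%, 49.0% and 50.5% of the Abcam-only ones. Introns held 30.4%, 35.5%, 28.0%, 34.1% and 34.2% of the Abcam-only peaks outside TSSs. The early pachynema value for shared peaks rests on 95 peaks.

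Shared peaks were also the wider ones in both lists. The median width of shared Abcam peaks was 1426 bp, 1360 bp, 1507 bp, 1950 bp and 1899 bp from leptonema to diplonema. Abcam-only peaks had medians of 588 bp, 599 bp, 649 bp, 638 bp and 585 bp. The difference was 1017 ± 273 bp (SD, n = 5, exact sign-flip p = 0.0625). Among EpiCypher peaks the medians were 712 bp, 575 bp, 382 bp, 592 bp and 821 bp for shared and 354 bp, 252 bp, 186 bp, 199 bp and 204 bp for EpiCypher-only peaks, a difference of 377 ± 153 bp (SD, n = 5, exact sign-flip p = 0.0625). A wide peak offers more bases to overlap, so width and sharing are linked by construction in part.

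**Figure D2:**
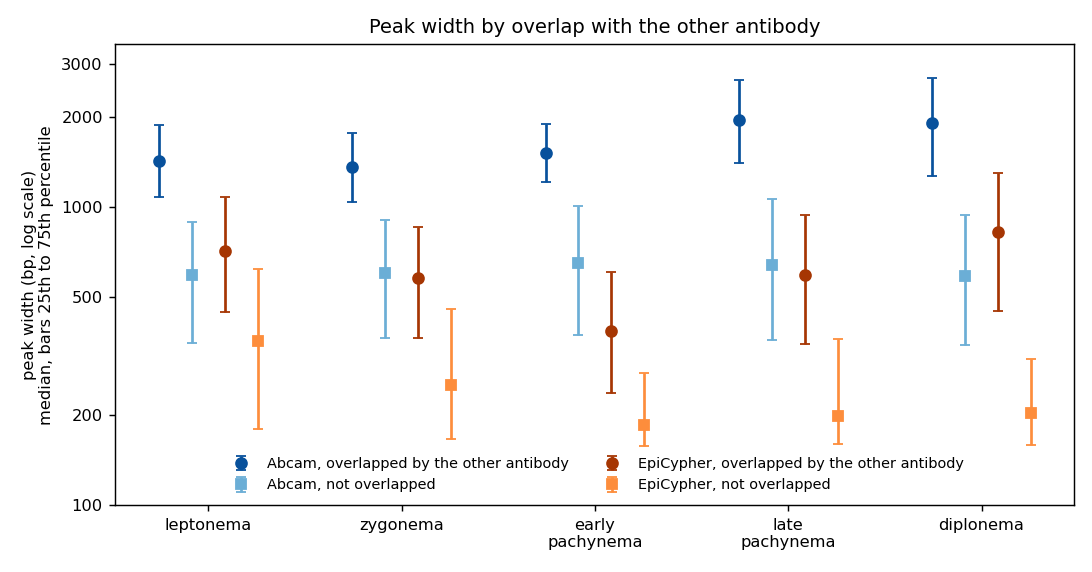
Median peak width (log scale, bars from the 25th to the 75th percentile over peaks) at each stage for shared and unshared peaks of both antibodies. Shared Abcam peaks sit at 1360 bp to 1950 bp and Abcam-only peaks at 585 bp to 649 bp.

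The difference between TSSs and other places was also present among peaks of like width. Among Abcam peaks from 1000 bp to under 2000 bp, EpiCypher overlapped 76.7%, 68.5%, 56.7%, 68.9% and 86.6% of those at TSSs and 43.9%, 58.9%, 7.40%, 20.3% and 44.5% of those outside. For peaks of 2000 bp or more the shares were 89.1%, 83.7%, 80.9%, 92.4% and 98.9% at TSSs and 61.0%, 81.6%, 27.5%, 55.6% and 85.8% outside. The TSS share was the higher in 18 of 20 combinations of stage and width bin. The exceptions were peaks under 500 bp in zygonema, at 3.07% against 4.23%, and in early pachynema, at 0.683% against 0.836%.

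Where both antibodies called a site, the Abcam peak reached beyond the EpiCypher peak on both sides. The median flank extension, the mean of the reach on the left and right of an EpiCypher peak, was 326.5 bp, 381.5 bp, 528.5 bp, 650.5 bp and 515 bp from leptonema to diplonema. The range from the 25th to the 75th percentile of peaks ran from 205 bp to 477 bp in leptonema and from 448.5 bp to 899 bp in late pachynema. The mean of the medians was 480 ± 128 bp (SD, n = 5, exact sign-flip p = 0.0625). The Abcam peak fully enclosed 83.8%, 82.6%, 99.4%, 95.5% and 93.0% of shared EpiCypher peaks. The span was 1.90, 2.32, 3.67, 3.07 and 2.21 times the EpiCypher width at the median.

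The same measure between the 2 EpiCypher experiments was far smaller and changed sign. Peaks of experiment 1 reached beyond those of experiment 2 by a median of -104 bp, 76 bp, 70.8 bp, -131.5 bp and -198 bp from leptonema to diplonema, with negative values where the experiment 1 peak was shorter. Measured against EpiCypher experiment 1, the Abcam peaks of experiment 2 reached further by 425 bp, 229 bp, 432 bp, 862.5 bp and 851 bp. At equal list size the extension over experiment 2 was 371 bp, 452 bp, 620.5 bp, 731 bp and 555.5 bp. This setting keeps the widest Abcam peaks, which raises the extension by construction, so nothing is read from it. Over either EpiCypher experiment, the Abcam extension was larger at every stage than that between the 2 EpiCypher experiments. Whether the higher SPoT of the Abcam libraries widened their peaks was not tested.

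**Figure D3:**
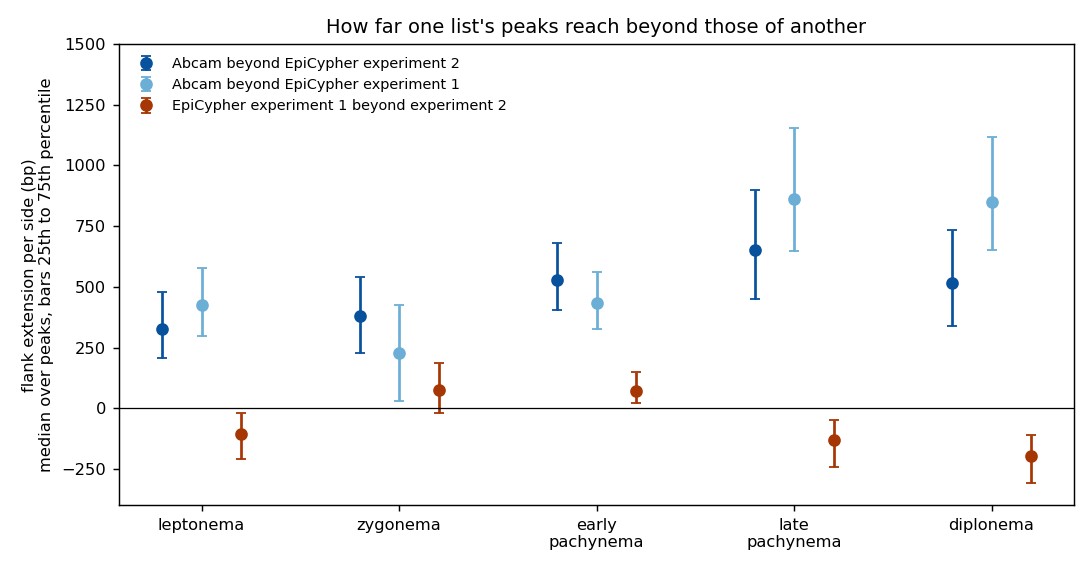
Flank extension per side in bp (median over shared peaks, bars from the 25th to the 75th percentile) of Abcam beyond EpiCypher experiment 2, of Abcam beyond EpiCypher experiment 1, and of EpiCypher experiment 1 beyond experiment 2. Abcam medians lie between 229 bp and 862.5 bp, and those between the EpiCypher experiments between -198 bp and 76 bp.

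The extension at TSSs and elsewhere was most unequal in zygonema, where it was 453.5 bp at TSSs and 202.5 bp outside them. In leptonema the values were 341 bp and 267.5 bp, in early pachynema 529.5 bp and 483 bp, and in late pachynema 655 bp and 601.5 bp. In diplonema the values were 515 bp and 516 bp. At equal list size the order turned in leptonema, at 367 bp and 401.5 bp, in early pachynema, at 619 bp and 765.5 bp, and in late pachynema, at 723.5 bp and 832 bp, while zygonema had 486 bp and 293.5 bp. Against EpiCypher experiment 1 zygonema had 397.5 bp and 35.8 bp. At peaks whose TSSs were all on one strand, the median downstream extension, into the transcribed side, was 335 bp, 448 bp, 455 bp, 659 bp and 517 bp and the upstream extension 314 bp, 409 bp, 546 bp, 529 bp and 421 bp. Downstream was the longer at 4 of 5 stages and upstream in early pachynema. The mean difference of 39.0 ± 84.8 bp was within the spread between stages (SD, n = 5, exact sign-flip p = 0.3125). Against EpiCypher experiment 1 it was 15.6 bp, with downstream the longer at 2 of 5 stages.

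Zbtb32, which encodes a zinc finger transcription factor of the BTB family, had the largest mean extension of the genes called by both antibodies at all 5 stages. Its TSSs lie on the minus strand of chromosome 7 from 30592942 to 30598909. The Abcam peak there was 2241 bp, 2147 bp, 2274 bp, 13744 bp and 13207 bp wide from leptonema to diplonema. The EpiCypher peak was 827 bp, 488 bp, 541 bp, 785 bp and 1071 bp wide. At the 3 earlier stages the Abcam peak overlapped 1 EpiCypher peak and ended near the TSS, and a separate Abcam peak lay downstream. At the 2 latest stages 1 Abcam peak ran from the TSS over this downstream site, and 2 separate EpiCypher peaks lay under it.

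The other 4 genes with the largest mean extension also had Abcam peaks that spanned several EpiCypher peaks at 1 or more stages, 3 of them at Gzf1 in diplonema and 2 at the others. At Ddx50, an RNA helicase gene, Abcam widths were 1902 bp, 2859 bp, 3025 bp, 8794 bp and 17204 bp, and EpiCypher widths 1501 bp, 956 bp, 471 bp, 1183 bp and 2184 bp. At Rassf1, which encodes a Ras-association domain protein, Abcam widths were 2800 bp, 1824 bp, 1808 bp, 10784 bp and 9887 bp, and EpiCypher widths lay between 614 bp and 1724 bp. Zbtb22 had Abcam widths of 5628 bp, 1633 bp, 2139 bp, 7658 bp and 8386 bp. Gzf1, which also encodes a zinc finger protein, had 1478 bp, 2747 bp, 4888 bp, 6200 bp and 11385 bp. For pairs in which 1 Abcam peak met 1 EpiCypher peak and no other, which held 95.7% to 98.3% of the shared EpiCypher peaks, the median extension over all sites was 318 bp, 377 bp, 525 bp, 637 bp and 505 bp, an alternative chosen after the values were seen. Over the 4820 genes called by both at all 5 stages with a measured extension, the median of the mean extension was 539 bp, and these 5 lay between 2001 bp and 2990 bp.

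Genes were compared directly by asking whether either list had a peak at any TSS of a protein-coding gene. Of the 20807 protein-coding genes on chromosomes 1 to 19, both antibodies called 46.9%, 35.8%, 25.5%, 40.1% and 46.4% from leptonema to diplonema. Abcam alone called 18.8%, 24.7%, 29.1%, 16.3% and 7.91%, and EpiCypher alone 0.125%, 0.125%, 0.0192%, 0.207% and 0.433%. Neither called 34.2%, 39.4%, 45.4%, 43.4% and 45.2%. The genes marked by both antibodies were fewest in early pachynema, where the EpiCypher list was shortest. Both antibodies called 4821 genes at all 5 stages (23.2%), Abcam alone called 326 at all 5 (1.57%), and EpiCypher alone called 0 at all 5 (0%).

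Among the genes called by Abcam alone, a small part lay under an Abcam peak that an EpiCypher peak overlapped away from the gene's TSSs. This was so for 4.43%, 2.08%, 1.37%, 4.69% and 8.39% of them from leptonema to diplonema, with median Abcam widths of 2082 bp, 1929 bp, 2364 bp, 2784 bp and 1898 bp. The others lay under Abcam-only peaks with medians of 927 bp, 889 bp, 928 bp, 881 bp and 681 bp. Of the 326 genes called by Abcam alone at all stages, 293 had no EpiCypher peak under the Abcam peak at any stage, and 33 of those were called by EpiCypher in experiment 1 at 1 stage or more.

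The widest of the Abcam-alone genes were mostly of the first kind. Trip10 encodes an adaptor protein of membrane and actin remodelling, with TSSs on the plus strand of chromosome 17 from 57249455. The Abcam peak at Trip10 was 4290 bp, 3770 bp, 3603 bp, 3928 bp and 3962 bp wide from leptonema to diplonema. At 4 of 5 stages an EpiCypher peak lay inside it, upstream of the first TSS window of the gene. Rras, a small GTPase gene, had Abcam widths of 2761 bp, 2640 bp, 2808 bp, 3582 bp and 2898 bp and an EpiCypher peak under them at 5 of 5 stages. Stambp, a deubiquitinase gene, had one at 2 stages. At 7 of the 10 widest genes this held for at least 1 stage.

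Bdh1, Dusp10 and 1700056E22Rik were the 3 of the 10 with no EpiCypher peak under the Abcam peak at any stage. Bdh1 encodes a mitochondrial dehydrogenase of ketone bodies and has TSSs on the plus strand of chromosome 16 from 31422280 to 31458116. Its Abcam peak was 2153 bp, 1926 bp, 1704 bp, 2476 bp and 1609 bp wide. Dusp10, a phosphatase gene of MAP kinases, had 2613 bp, 1705 bp, 1405 bp, 2707 bp and 1326 bp, and shares this promoter with 1700056E22Rik on the opposite strand. Neither Bdh1 nor Dusp10 had an EpiCypher peak at a TSS in experiment 1, and H3K9ac was called at 2 stages at Bdh1 and at 1 at Dusp10. Txnrd1, a thioredoxin reductase gene named after these values were seen, had 1063 bp, 2095 bp, 1682 bp, 2063 bp and 2168 bp.

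Genes called by EpiCypher alone were rare, at 171 genes for 1 stage or more against 9263 for Abcam alone. Kpna1, an importin alpha gene of nuclear transport, was the only gene called by EpiCypher alone at 4 stages. Its EpiCypher peak was 924 bp in zygonema, 629 bp in early pachynema, 1075 bp in late pachynema and 1633 bp in diplonema, and experiment 1 called it at all 5 stages. The nearest Abcam peak of these stages lay between 43531 bp and 56127 bp away. The window printed above for Kpna1, with 42 CpGs, comes from this peak.

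Alkbh5, which encodes an RNA demethylase, had an Abcam call at the earlier stages and none at the later. Abcam peaks of 3080 bp, 2647 bp and 2520 bp were called in leptonema, zygonema and early pachynema, and none in late pachynema and diplonema. EpiCypher called Alkbh5 at all stages, with widths of 2305 bp, 1593 bp, 860 bp, 1515 bp and 2305 bp. At the 2 latest stages the nearest Abcam peak was 81863 bp and 81729 bp away. Tuba1b, an alpha-tubulin gene, followed the same order, with Abcam widths of 2104 bp, 1377 bp and 1417 bp at the first 3 stages and EpiCypher-alone peaks of 797 bp and 1280 bp at the last 2. Aida and Brox share a promoter that was likewise called by EpiCypher alone in late pachynema, at 479 bp, and diplonema, at 1108 bp.

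**Figure D4:**
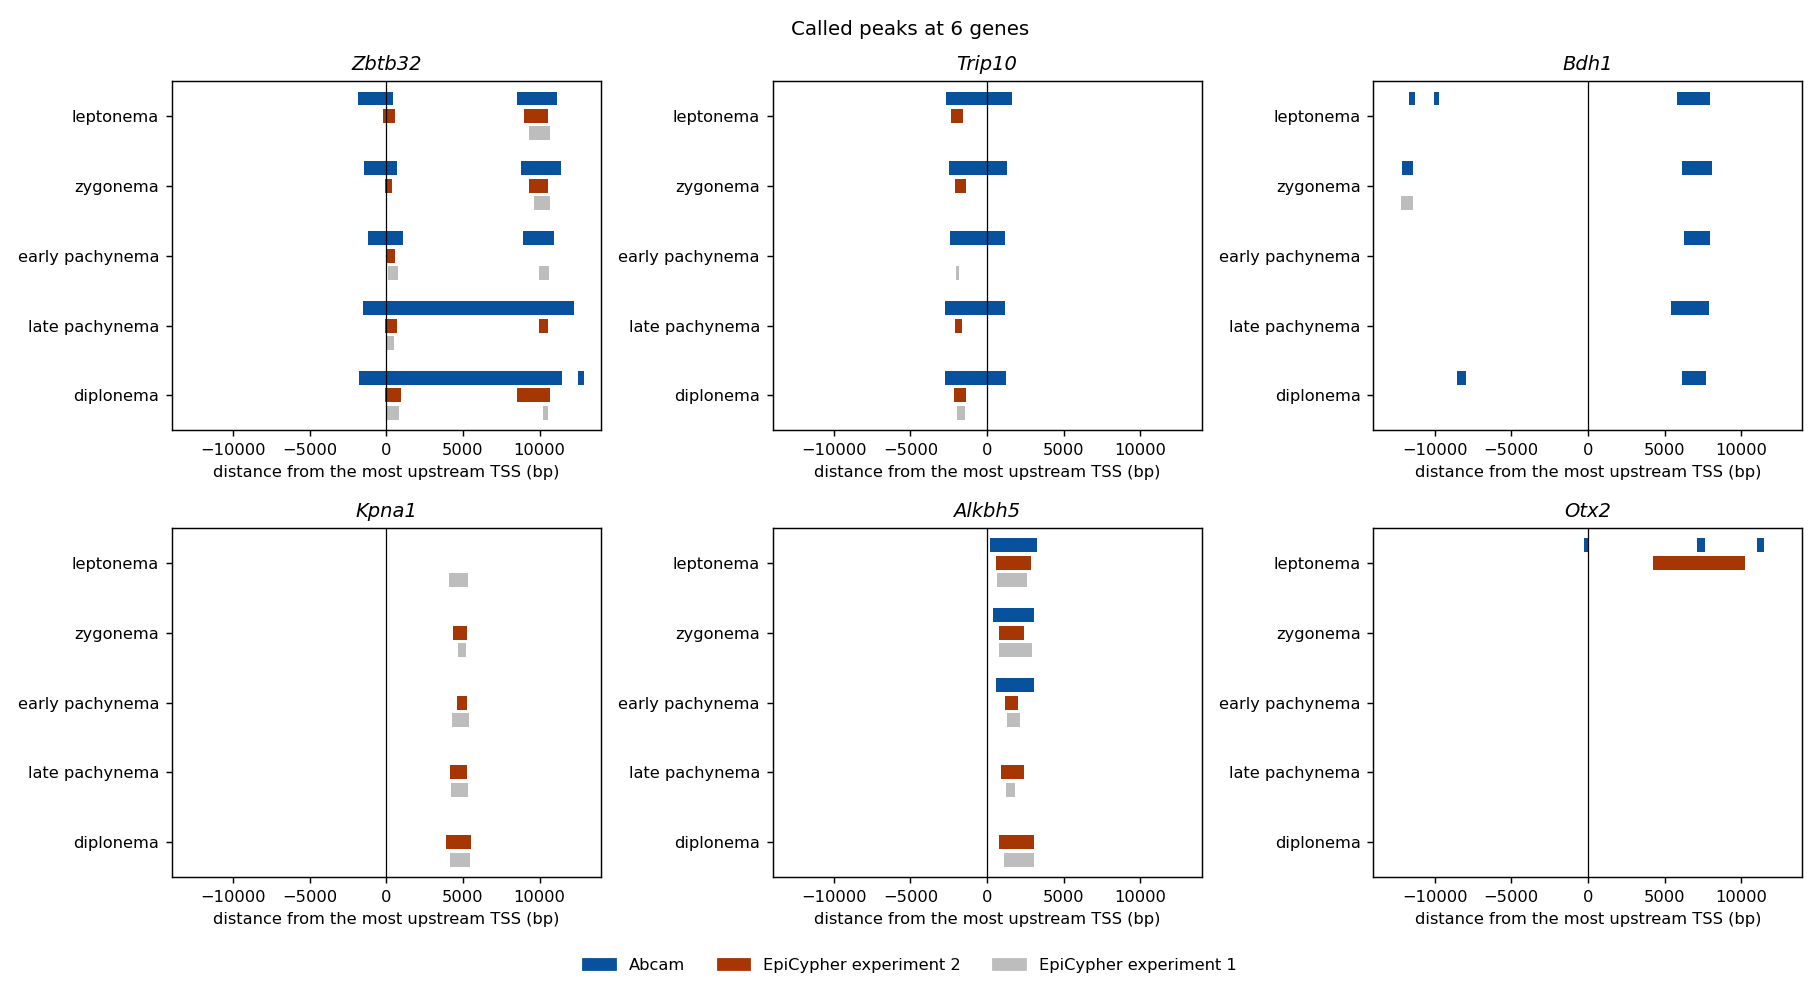
Called peaks around the most upstream TSS of 6 genes, with genes reading left to right and one bar per peak for Abcam, EpiCypher experiment 2 and EpiCypher experiment 1 at each stage. The Abcam bar at Zbtb32 lengthens to 13744 bp in late pachynema, Trip10 shows an EpiCypher bar inside the Abcam bar at 4 stages, Bdh1 has Abcam bars and no EpiCypher bar of experiment 2, Kpna1 has no Abcam bar, and Otx2 has an EpiCypher bar of 5992 bp in leptonema.

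Calls at the sorting markers and Prdm9 give only a limited check of the stages for both antibodies. Stra8, the marker of leptonema, was called by both in leptonema at widths of 2234 bp (Abcam) and 2065 bp (EpiCypher). In zygonema it was called by Abcam alone at 1593 bp, and at no later stage by either. Sycp3 and Sycp1, genes of the synaptonemal complex, were called by both at all 5 stages. Prdm9, the methyltransferase that marks recombination sites, was called by both at all stages. Its Abcam widths were 1807 bp, 1699 bp, 1289 bp, 1804 bp and 1489 bp and its EpiCypher widths 1750 bp, 540 bp, 180 bp, 496 bp and 489 bp. Hist1h1t, the gene of H1t, was called by both in zygonema, by Abcam alone in early pachynema and by neither in leptonema, late pachynema and diplonema. The study describes the H1t protein as present from mid pachynema on, so the calls at its gene did not follow the sort. EpiCypher experiment 1 called 5 of these 5 genes in leptonema, Hist1h1t among them, and 2 in late pachynema and in diplonema.

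Genes of recombination and the chromosome axis were mostly called by both antibodies, except in early pachynema, where more were called by Abcam alone. Of 29 measured genes, both antibodies called 26, 22, 10, 20 and 22 from leptonema to diplonema, and Abcam alone 1, 5, 17, 7 and 4. The shares called by both were 89.7%, 75.9%, 34.5%, 69.0% and 75.9%, against 46.9%, 35.8%, 25.5%, 40.1% and 46.4% of all protein-coding genes. Those called by Abcam alone were 3.45%, 17.2%, 58.6%, 24.1% and 13.8%, against 18.8%, 24.7%, 29.1%, 16.3% and 7.91%. In early pachynema, where the share of Abcam only was the highest, 6.90% of the list was called by neither, against 45.4% of all protein-coding genes. The list was thus also called more often at all. EpiCypher experiment 1 called 9 of those 17 in early pachynema, against 29.8% of all genes called by Abcam alone at that stage. Dmc1, the meiotic recombinase gene, had Abcam peaks of 2415 bp, 1265 bp, 898 bp, 1021 bp and 413 bp and EpiCypher peaks only in leptonema, at 1093 bp, and zygonema, at 181 bp. Rec8, a meiotic cohesin gene, was called by Abcam alone at 4 stages, at 1196 bp, 1068 bp, 213 bp and 283 bp. Hormad1, an axis gene, was called by both throughout, with Abcam widths from 1796 bp to 2891 bp and EpiCypher widths from 629 bp to 1106 bp. In 97 of the 100 combinations of gene and stage called by both, the widest Abcam peak at the gene was the wider. Among all genes called by both this held for 96.0%, 99.2%, 100%, 99.7% and 99.2% from leptonema to diplonema. The greater Abcam width was thus no trait of this list.

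Spermiogenesis genes differed among themselves in the order of the calls. Of 30 genes, Abcam alone called 3, 5, 11, 12 and 5, or 10%, 16.7%, 36.7%, 40% and 16.7%, against 18.8%, 24.7%, 29.1%, 16.3% and 7.91% of all protein-coding genes. Both called 9, 6, 3, 9 and 11, or 30%, 20%, 10%, 30% and 36.7%, against 46.9%, 35.8%, 25.5%, 40.1% and 46.4% of all protein-coding genes. Acr, the gene of the acrosomal protease, had an Abcam peak of 927 bp alone in early pachynema. It was then called by both, with 5113 bp against 755 bp in late pachynema and 3919 bp against 1287 bp in diplonema. Pgk2, a testis glycolytic gene, had an Abcam peak of 328 bp alone in early pachynema and was called by both later, at 5111 bp against 853 bp and 4982 bp against 1997 bp. Ldhc, the testis lactate dehydrogenase gene, went from 641 bp and 1468 bp with Abcam alone in zygonema and early pachynema to both in late pachynema and diplonema. Crisp2, Adam2 and Tekt1 were also Abcam alone in zygonema and early pachynema and both at the 2 latest stages, though Adam2 had been called by both in leptonema. Tssk6, Cabyr and Hspa1l went the other way, called by both in leptonema and by Abcam alone from early pachynema to diplonema. The protamine genes Prm1 and Prm2 were called by neither at any stage.

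Housekeeping genes were mostly called by both. Both antibodies called 27, 24, 25, 26 and 26 of 30, or 90%, 80%, 83.3%, 86.7% and 86.7%, against 46.9%, 35.8%, 25.5%, 40.1% and 46.4% of all protein-coding genes. Abcam alone called 1, 4, 3, 2 and 1, or 3.33%, 13.3%, 10%, 6.67% and 3.33%, against 18.8%, 24.7%, 29.1%, 16.3% and 7.91% of all protein-coding genes. Ywhaz, a signalling adaptor gene, had Abcam widths of 2995 bp, 2900 bp, 3102 bp, 3113 bp and 3719 bp and EpiCypher widths of 1985 bp, 1790 bp, 1700 bp, 1904 bp and 2096 bp. Genes of differentiated tissues outside the testis were called by neither in 16, 18, 19, 18 and 18 of 19 cases, or 84.2%, 94.7%, 100%, 94.7% and 94.7%, against 34.2%, 39.4%, 45.4%, 43.4% and 45.2% of all protein-coding genes.

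The sort took single nuclei with replicated DNA content and SCP3 signal. The study still found nuclei of another stage in sorted populations, such as zygotene nuclei in that of early pachynema. Marker genes of other testis cells were called as follows. Of 19 spermatogonial genes, Abcam alone called 7, 10, 8, 5 and 4, or 36.8%, 52.6%, 42.1%, 26.3% and 21.1%, against 18.8%, 24.7%, 29.1%, 16.3% and 7.91% of all protein-coding genes. Both called 9, 5, 2, 4 and 5, or 47.4%, 26.3%, 10.5%, 21.1% and 26.3%, against 46.9%, 35.8%, 25.5%, 40.1% and 46.4% of all protein-coding genes. Zbtb16, a stem cell factor gene, had Abcam peaks alone of 2535 bp, 1275 bp, 1375 bp and 415 bp up to late pachynema. Of 19 genes of Sertoli, Leydig and peritubular cells, Abcam alone called 6, 5, 2, 2 and 1, or 31.6%, 26.3%, 10.5%, 10.5% and 5.26%. Among all protein-coding genes these shares were 18.8%, 24.7%, 29.1%, 16.3% and 7.91%, so the list lay above them in leptonema and zygonema and below them later. Both called 3, 1, 0, 1 and 3, or 15.8%, 5.26%, 0%, 5.26% and 15.8%, against 46.9%, 35.8%, 25.5%, 40.1% and 46.4% of all protein-coding genes. The Leydig cell genes Star, Cyp11a1 and Cyp17a1 were called by neither at all 5 stages. Of the other Leydig cell genes, Insl3 was called by both in diplonema, at 199 bp (Abcam) and 288 bp (EpiCypher), and Lhcgr by Abcam alone in leptonema, at 201 bp. Among the Sertoli cell genes, Wt1 was called by both in leptonema and zygonema, and Sox9 and Gata4 by both in leptonema. Inha was called by both in diplonema, and Aard by both in late pachynema and diplonema. Amhr2 and Clu were called by Abcam alone in leptonema and zygonema, and Cldn11 in leptonema. Dhh and Fshr were called by neither at any stage. EpiCypher experiment 1 called 0 of the 19 genes of Sertoli, Leydig and peritubular cells at each of the 5 stages. The calls by both in this list therefore rest on 1 EpiCypher library per stage. The part of other cells in these calls was not tested.

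Developmental transcription factor genes, whose CpG-rich promoters are typically held silent by Polycomb in many cell types, had calls that varied widely between stages. Of 35 genes, both antibodies called 24, 2, 0, 6 and 10 from leptonema to diplonema, or 68.6%, 5.71%, 0%, 17.1% and 28.6%, against 46.9%, 35.8%, 25.5%, 40.1% and 46.4% of all protein-coding genes. Abcam alone called 6, 21, 17, 11 and 6, or 17.1%, 60%, 48.6%, 31.4% and 17.1%, against 18.8%, 24.7%, 29.1%, 16.3% and 7.91% of all protein-coding genes. The EpiCypher call in leptonema did not recur in its other experiment, where 0 of the 35 were called at that stage. The leptonema result therefore rests on 1 EpiCypher library.

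In that leptonema library the EpiCypher peaks were wide and only partly covered by Abcam. At the 25 genes of the list with an EpiCypher peak, the median width of the widest peak was 2344 bp, and a median of 44.4% of it lay under Abcam peaks. In late pachynema and diplonema the medians were 340 bp and 341 bp, with 100% covered. At Hoxa9, a homeobox gene of body patterning, the EpiCypher peak in leptonema was 11114 bp wide, and 2 Abcam peaks covered 17.5% of it. At Otx2, a homeobox gene of head development, the EpiCypher peak was 5992 bp and Abcam covered 8.80%. Msx1 had 5003 bp and 28.6%, Hoxa5 4560 bp and 33.2%, and Sox2 3539 bp and 31.0%. At Foxa2 and Twist1 the Abcam peaks covered 100% of EpiCypher peaks of 1897 bp and 1051 bp. The widest EpiCypher peak exceeded the widest Abcam peak at 15 of the 24 genes called by both in leptonema, and at 0 of 2, 0 of 6 and 0 of 10 in zygonema, late pachynema and diplonema. Among all genes called by both, the Abcam peak was the wider in 96.0% in leptonema and in at least 99.2% at the other stages.

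**Figure D5:**
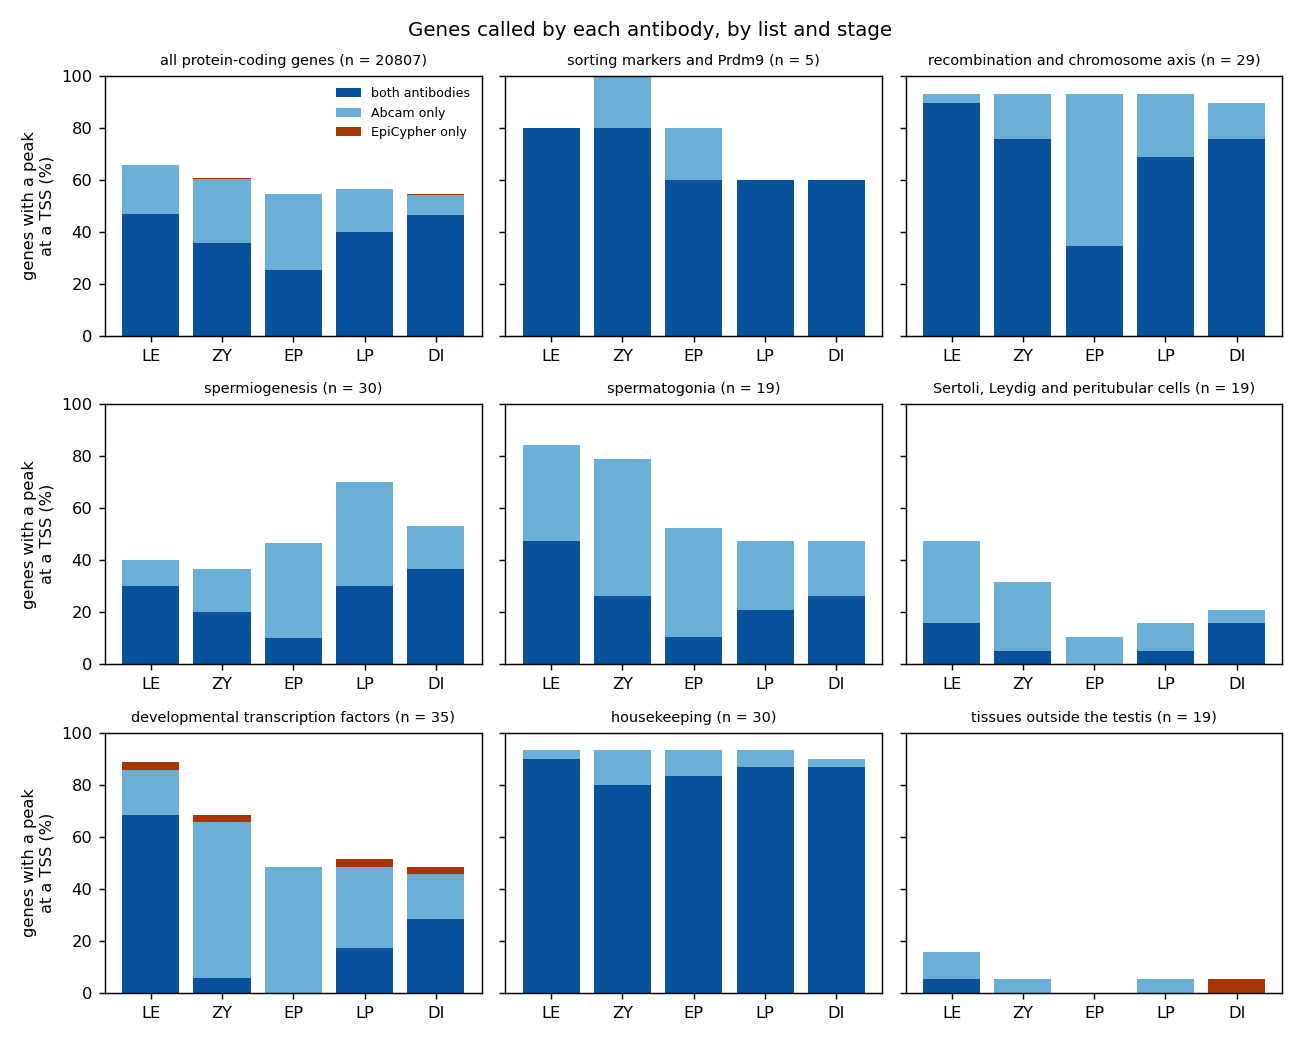
Share of genes with a peak at a TSS by stage (LE leptonema, ZY zygonema, EP early pachynema, LP late pachynema, DI diplonema), for all protein-coding genes and 8 lists, stacked as both antibodies, Abcam only and EpiCypher only. The recombination list is 58.6% Abcam only in early pachynema, and the developmental list goes from 24 genes called by both in leptonema to 0 in early pachynema.

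Lists of experiment 1, which were not used to define the classes, overlapped a larger part of the shared than of the Abcam-only peaks. The shared class already holds a call by the EpiCypher antibody at the same stage, and its peaks are the wider ones. Part of the higher overlap is therefore built in. EpiCypher experiment 1 overlapped 71.0%, 90.5%, 98.7%, 57% and 56.8% of shared Abcam peaks and 3.54%, 24.1%, 14.3%, 1.36% and 0.618% of Abcam-only peaks from leptonema to diplonema. The difference was 66.0 ± 11.7 points (SD, n = 5, exact sign-flip p = 0.0625). The Abcam-only share was highest in zygonema, where the experiment 1 list was the longest with 15699 peaks. The H3K9ac samples carry this name in their titles, while their antibody label names H3K4me3 with the catalogue number of the H3K9ac antibody. H3K9ac, a mark of active promoters, overlapped 22.7%, 89.7%, 96.9%, 19.1% and 4.21% of shared and 0.106%, 27.1%, 21.9%, 0.226% and 0.230% of Abcam-only peaks, a difference of 36.6 ± 30.5 points (SD, n = 5, exact sign-flip p = 0.0625). The H3K9ac lists held 2823, 16003, 7744, 1727 and 516 peaks. Of EpiCypher-only peaks, H3K9ac overlapped 0.647%, 9.23%, 23.4%, 0.597% and 0.910%, which differed from the Abcam-only peaks by -2.96 ± 8.35 points (SD, n = 5, exact sign-flip p = 1).

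Abcam-only peaks were also looked up in the lists of the other stages, where the Abcam lists are the longer ones and the EpiCypher overlap is lowered by how the class is defined. Of the Abcam-only peaks, 67.5%, 73.6%, 94.4%, 82.8% and 80.6% overlapped an Abcam peak of another stage, and 21.2%, 30.2%, 58.1%, 38.0% and 19.6% an EpiCypher peak of another stage in experiment 2. Few lay next to an EpiCypher peak, as 0.982%, 0.889%, 0.0313%, 0.524% and 0.776% were within 1000 bp of one, at median gaps from 44572 bp to 111599 bp. Nearness was limited by construction. Most EpiCypher peaks lie under a shared Abcam peak that reaches beyond them, and neighbouring peaks of a list are at least 605 bp apart. Of the EpiCypher-only peaks, 22.6%, 32.1%, 0%, 10.7% and 6.22% were within 1000 bp of an Abcam peak. The Abcam lists are longer and their peaks wider, so these shares are not set against those of the Abcam-only peaks. The 0 of early pachynema is out of 47 peaks. Merged over stages, the Abcam peaks formed 43759 sites. Of the 11294 sites with Abcam peaks at all 5 stages, 87.3% were at a TSS and 90.7% had an EpiCypher peak in experiment 2. Of the 16046 sites at 1 stage only, 16.5% were at a TSS and 7.66% had an EpiCypher peak. Of the sites marked at all 5 stages, 976 had no peak in any of the 10 EpiCypher lists.

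The widest single peaks show both kinds. In diplonema the widest Abcam-only peak outside TSSs ran over 9679 bp at chr10:75847871-75857549, an intergenic region 1803 bp from Mif, and had EpiCypher peaks in leptonema and zygonema but not in diplonema. The next, of 8974 bp at chr9:54245545-54254518, lay in an intron of Cyp19a1, the aromatase gene. In leptonema the widest was 4179 bp at chr5:125402566-125406744, 7113 bp from Dhx37, with Abcam peaks in leptonema, zygonema and early pachynema and none in any EpiCypher list. Among EpiCypher-only peaks, one of 1755 bp at chr11:84413025-84414779, 8075 bp from Aatf, was called in zygonema and late pachynema with no Abcam peak at any stage. One of 2859 bp at chr3:95732057-95734915, at a TSS of Ecm1, was called by EpiCypher alone in diplonema.

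The sharing of sites between the antibodies was set beside that between the 2 experiments of the EpiCypher antibody. With all 3 lists cut to the shortest, the Jaccard index of merged sites for Abcam and EpiCypher of experiment 2 was 54.3%, 53.8%, 50.0%, 57.4% and 73.1%. For the EpiCypher experiments it was 65.0%, 53.2%, 69.2%, 58.3% and 73.2%. The values were within 1 point at zygonema, late pachynema and diplonema and lower for the antibodies in leptonema and early pachynema. The mean difference was -6.06 ± 8.69 points (SD, n = 5, exact sign-flip p = 0.1875). Across stages with 4883 peaks per list, the EpiCypher peaks of 4 of 5 stages overlapped the Abcam list of their own stage most. In leptonema, 61.7% overlapped the leptonema Abcam list and 63.8% the zygonema one.

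CpG content followed the sharing. The median ratio of observed to expected CpGs in 500 bp around peak centres was 0.787, 0.765, 0.876, 0.801 and 0.754 for shared Abcam peaks and 0.462, 0.468, 0.617, 0.431 and 0.406 for Abcam-only peaks. The difference was 0.320 ± 0.0434 (SD, n = 5, exact sign-flip p = 0.0625). It was also seen among TSS peaks, at 0.830 against 0.582 in leptonema and 0.785 against 0.629 in diplonema. Outside TSSs it turned at the 2 earliest stages, at 0.374 for shared and 0.415 for Abcam-only peaks in leptonema and 0.185 and 0.357 in zygonema, and kept its direction at the 3 later ones. Shared zygonema peaks outside TSSs were thus the poorest in CpGs among the Abcam classes.

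Short sequence words gave another description of the peaks outside TSSs. The word GNTGCTNCT, part of the motif of the C57BL/6 form of PRDM9, was searched on both strands of 500 bp around peak centres. Protein-coding TSSs held it in 13.7% of windows of this length, and windows 10000 bp from shared zygonema peaks outside TSSs in 9.54%. Of shared peaks outside TSSs, 19.7%, 25.2%, 7.37%, 12.0% and 12.1% held it from leptonema to diplonema. Of the Abcam-only peaks outside TSSs, 17.2%, 19.3%, 13.2%, 12.2% and 12.3% did. Of the EpiCypher-only peaks outside TSSs, 10.5%, 14.4%, 2.50%, 16.5% and 19.6% did. The word was thus most frequent at the 2 earliest stages in the shared and the Abcam-only class, and at the 2 latest in the EpiCypher-only class. Examples from the widest zygonema peaks outside TSSs show it in capitals, read 5′ to 3′ on the strand that holds it.
Shared, in an intron of Dennd1a, chr2:38137687-38137716, minus strand: taagttttcgaGATGCTGCTattcttgtgc
Abcam-only, 355 bp from Dmrt1, chr19:25605682-25605711, plus strand: agagttaagaGCTGCTGCTgaatatggggg

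In Abcam-only peaks outside TSSs, the MYB and RFX words were more frequent from early pachynema on, and the CTCF word less frequent. CAACNGNC, the word bound by MYB factors, was in 15.8% of the TSS windows and in 15.0%, 15.1%, 19.4%, 21.5% and 23.2% of Abcam-only peaks outside TSSs from leptonema to diplonema, against 12.6% or 12.8% in windows 10000 bp from the late pachynema and diplonema peaks. The paired word of RFX factors was in 0.349% of TSS windows. It was in 0.166%, 0.181%, 0.546%, 0.852% and 1.22% of Abcam-only peaks outside TSSs, or 21, 21, 30, 54 and 56 peaks. Of shared peaks outside TSSs, 0.161%, 0.145%, 1.05%, 0.688% and 0.426% held it, or 4, 5, 1, 5 and 7 peaks. The MYB word was in 14.4%, 14.6%, 22.1%, 21.6% and 22.6% of the shared peaks outside TSSs. The word of CTCF was in 3.59% of TSS windows and in 8.50% and 12.7% of EpiCypher-only peaks outside TSSs in leptonema and zygonema, or 56 and 89 peaks. At the later stages the EpiCypher-only shares were 2.50%, 7.63% and 5.19%. In Abcam-only peaks outside TSSs the CTCF word was in 7.48%, 5.55%, 4.86%, 4.65% and 4.05% from leptonema to diplonema. Windows 10000 bp from these Abcam-only peaks held it in 3.60% to 4.04%. Of shared peaks outside TSSs, 6.82%, 4.29%, 3.16%, 5.50% and 4.68% held the CTCF word. The MYB word read on the other strand ends in the letters GTTG, with which the RFX word begins, so that these matches can overlap. A match is a run of letters and not a binding site. Examples from the widest Abcam-only peaks outside TSSs follow, with the word in capitals.
RFX word, late pachynema, 5528 bp from Trappc9, chr15:73067781-73067810, plus strand: cggagtttGTTGCCCTGGGAACtgagctct
RFX word, diplonema, 34864 bp from Fam162b, chr10:51549843-51549872, plus strand: tggtgcctGTTGCCTTGGCAACcagtctgc
MYB word, diplonema, 1803 bp from Mif, chr10:75852596-75852625, minus strand: gtcattcatagCAACAGGCtctggtctttc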

How the data were processed

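The 10 lists of experiment 2 came from ChIP-Seq of sorted nuclei. The authors aligned reads with BWA mem 0.7.12 to mm10 and called broad peaks per library with MACS2 2.1.2 against the input of the stage, and deposited chromosome, start and end of each peak, with no score, signal or read count, so that depth and its precision are unknown. The sources differ on sonication size. Peaks of 2 lists that shared 1 bp counted as overlapping. TSSs were 125891 distinct GENCODE M21 transcript 5′ ends (GRCm38) with 500 bp on either side. Equal-size lists held the widest peaks. Differences were tested over 5 stage pairs by an exact two-sided sign-flip permutation test, checked on simulated lists and adjusted by Benjamini-Hochberg over 17 tests. Computations used Python 3.11.15, numpy 2.4.6, scipy 1.17.1 and bedtools 2.31.1, and figures matplotlib 3.10.9.

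Genes were called by a peak at any TSS. Named were the 10 Abcam-alone genes at all stages with the widest peaks, the 10 EpiCypher-alone genes at the most stages, the 5 genes called by both with the largest extension, the 2 widest unshared peaks per class and stage, and members of 8 lists, of which 186 of 187 genes matched. Text gives examples from these, and some named genes are not reported here. Members and lists were chosen with earlier results of these data known. Alternatives covered the overlap, TSS window and type, merging within 500 bp, lists cut at their median width, equal size, the EpiCypher experiment, each stage left out and an unpaired test. Other marks and 31 samples without lists were not used here.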

Additional observations from a re-analysis of the deposited data

Results flagged for a closer look

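Contrasts between stages of opposite sign are given as values. Each stage has 1 pair of libraries, so the difference between stages was not tested. At equal list size, the share of peaks at a TSS, Abcam minus EpiCypher, was 6.10 points in leptonema and 11.3 points in zygonema, and -1.74, -1.13 and -1.59 points in early pachynema, late pachynema and diplonema. The downstream minus upstream extension at shared TSS peaks was 21 bp, 39 bp, 130 bp and 96 bp in leptonema, zygonema, late pachynema and diplonema and -91 bp in early pachynema. The Jaccard index of the antibody pair minus that of the EpiCypher experiments was 0.590 points in zygonema and -10.7, -19.2, -0.848 and -0.102 points in leptonema, early pachynema, late pachynema and diplonema. The H3K9ac overlap of EpiCypher-only minus Abcam-only peaks was -17.9 points in zygonema and 0.541, 1.48, 0.371 and 0.681 points in leptonema, early pachynema, late pachynema and diplonema.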

How the results depend on the processing

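Of 168 alternatives over 17 results, 162 kept the direction and side of the threshold, which no paired test could pass, and 15 results were never reversed. Of these alternatives, the 17 that merged peaks of a list within 500 bp changed nothing, since the smallest gap between neighbouring peaks of a list was 605 bp. Taken unpaired, 5 libraries against 5, the exact permutation test gave p = 0.00794 for peaks per list (13007) and for median width (402 bp), and p = 0.0317 for the TSS share (-20.6 points). The unpaired test ignores the stage pairs and treats libraries of 5 cell populations as replicates of an antibody. Nothing is therefore read from these p-values. At equal covered length the overlap difference turned to -64.9 points, where the Abcam list keeps fewer and wider peaks by construction. The H3K9ac overlap of EpiCypher-only minus Abcam-only peaks turned to 15.6 points with EpiCypher experiment 1, for which the cause was not tested, and to 0.769 points without the zygonema pair, in a leave-one-out range from -4.07 to 0.769. Leaving out each stage reversed no other result. For TSS share at equal size the range was 0.410 to 3.66 points, for downstream minus upstream extension 16.3 bp to 71.5 bp and for the Jaccard difference -7.72 to -2.77 points. Pairs of 1 Abcam and 1 EpiCypher peak, added after seeing the data, gave an extension of 472 bp. No paired analysis was possible by experiment number because the Abcam libraries carry experiment 2 only. Lists without scores allow no threshold other than width.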
